A study of Mus musculus with 24 samples.

Results

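The subunit genes of RNA polymerases I, II and III were followed from spermatogonia to pachytene spermatocytes of the mouse testis. Members were taken by symbol alone, as genes whose name is Polr1, Polr2 or Polr3 followed only by letters. The rule took 28 of the 52323 genes listed, and no measured value entered it. The choice of this family was made, however, with earlier results of these data known. By their known place in the enzymes, 3 genes belong to polymerase I only, 2 to polymerases I and III, and 5 to all of the nuclear polymerases. A further 7 belong to polymerase II only and 10 to polymerase III only, and Polr2m encodes Gdown1, an inhibitor bound to polymerase II. The mitochondrial polymerase gene Polrmt and a Polr2k pseudogene were the 2 other genes with Polr in the symbol.

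All cells came from the testes of wild-type NMRI mice at 24 days after birth. Spermatogenesis had been synchronised with WIN18,446, which blocks synthesis of retinoic acid, and then with retinoic acid itself, so both agents are shared by every stage. Each mouse had received 2 mg of 5-ethynyl uridine (EU), a nucleoside that enters RNA made during the 3 hours of labelling. Cells were sorted by their ploidy, and several libraries of a stage can come from the same animal. Ribosomal RNA was removed before total RNA libraries were made, but not for captured EU RNA, here called nascent RNA. Each assay had 12 libraries from 4 animals, and the animals of total RNA were not those of nascent RNA. Spermatogonia gave 3 libraries (2 animals), preleptotene 1 (1 animal), leptotene 4 (3 animals) and pachytene 4 (2 animals). The question of the study was how far transcription and RNA content change as male germ cells enter meiosis, and the subunit genes were compared across the stages and between the polymerases.

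Polymerase I transcribes the precursor of the large ribosomal RNAs. Polymerase II makes messenger RNA and many noncoding RNAs, and polymerase III makes transfer RNA, 5S ribosomal RNA and other short RNAs. The enzymes are built on a shared plan, with a pair of large catalytic subunits of their own, an alpha-like assembly pair, a stalk and common small subunits. Polymerase III also carries an initiation heterotrimer in which either of a pair of paralogs, encoded by Polr3g and Polr3gl, takes 1 place. In cultured mammalian cells Polr3g is known as the form of stem and proliferating cells, and Polr3gl as the widely expressed form.

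The genes with the clearest changes or catalytic roles are placed here by GENCODE M21 on mm10. Polr1a lies at chr6:71909053-71984935 and Polr1b at chr2:129100995-129126594, both on the plus strand. Polr1d lies at chr5:147077050-147111597, Polr2b at chr5:77310147-77349324, Polr2h at chr16:20717665-20722267, Polr3b at chr10:84622292-84727178 and Polr3f at chr2:144527718-144541995, on the plus strand. On the minus strand Polr2a lies at chr11:69733997-69758637, Polr3a at chr14:24448696-24487058, Polr3g at chr13:81673843-81711013 and Polr3gl at chr3:96577872-96594181. Values are for whole genes.

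The promoters of this paralog pair are shown because the genes went opposite ways between leptotene and pachytene in total RNA. Each runs from 250 bases before to 50 bases after the gene's start in RefSeq, build GRCm38.p6, and both genes lie on the minus strand. The Polr3g window is chr13:81710964-81711263 and the Polr3gl window is chr3:96594132-96594431. Capitals in Polr3g mark the ETS letters CCGGAAG on the opposite strand, and capitals in Polr3gl mark the E-box letters CACGTG.
Polr3g: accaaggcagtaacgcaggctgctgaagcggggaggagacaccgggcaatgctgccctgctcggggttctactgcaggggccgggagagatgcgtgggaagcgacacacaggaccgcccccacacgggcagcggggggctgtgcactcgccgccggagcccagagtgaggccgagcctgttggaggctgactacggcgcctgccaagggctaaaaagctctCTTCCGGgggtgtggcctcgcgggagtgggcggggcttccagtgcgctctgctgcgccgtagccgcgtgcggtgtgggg
Polr3gl: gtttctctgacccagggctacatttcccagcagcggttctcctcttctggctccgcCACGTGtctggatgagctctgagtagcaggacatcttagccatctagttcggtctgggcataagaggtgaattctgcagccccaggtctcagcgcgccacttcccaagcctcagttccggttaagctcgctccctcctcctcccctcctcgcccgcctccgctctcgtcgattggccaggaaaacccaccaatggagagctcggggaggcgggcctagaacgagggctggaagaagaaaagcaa
The GC content of the Polr3g window was 69.7% with 26 CpG, and that of the Polr3gl window was 59.3% with 16 CpG. The table held promoters for 22 of the 28 members. Motif letters were searched on both strands, and no searched motif contains another. CCGGAAG was found in 7 of the 22 member genes (31.8%) and in 9.93% of all 27025 genes with a promoter. The 7 were Polr1c, Polr1e, Polr2c, Polr2f, Polr2j, Polr3b and Polr3g. CACGTG was found in 4 (18.2%), Polr2h, Polr3c, Polr3e and Polr3gl, and in 8.09% of all genes. The MYB letters CAGTTG were in 2 (9.09%) against 15.4%, the cAMP-response letters TGACGT in 1 (4.55%) against 8.37%, and TATAAA in 2 (9.09%) against 15.7%. Median CpG counts were 22 over the 24 member starts and 7 over all 32851 starts, with a median GC content of 60% and 52.7%.

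Several properties of the libraries bear on every value. The step between low FPKM values implied about 7.12M to 15.9M reads (M, 1e6) in total RNA and 5.06M to 10.2M in nascent RNA. A gene of 1500 bases at 1 FPKM then holds 7.59 to 23.9 reads, so values under 1 FPKM rest on few reads. In total RNA leptotene library 2 had a Spearman correlation of 0.874 to 0.904 with the pachytene libraries and 0.528 to 0.569 with the other leptotene libraries. In nascent RNA the same library number gave 0.754 to 0.860 and 0.594 to 0.625. Leptotene library 3 reached 0.853 in total RNA and 0.862 in nascent RNA with spermatogonial library 3, and 0.841 and 0.773 with leptotene library 1. Comparisons with leptotene are therefore given with and without leptotene libraries 2 and 3 (this pair was singled out once its values were known). All 6 listed pachytene markers rose from leptotene to pachytene in both assays, and the 3 spermatid markers tested rose with them. The summed level of the 19 listed somatic markers was 413 to 769 FPKM in spermatogonia, 53.1 in preleptotene, 11.2 to 47.1 in leptotene and 9.78 to 13.0 in pachytene in total RNA. In nascent RNA these sums were 157 to 246, 20.4, 4.29 to 7.93 and 3.42 to 8.20 FPKM. The Leydig markers alone summed to 4.47 to 7.76 FPKM in pachytene and 2.0, 4.15, 19.9 and 4.36 in leptotene of total RNA, and to 1.29 to 6.17 and 1.37 to 2.16 in nascent RNA, so the stages overlapped. The part of somatic RNA in the differences between stages was not tested. In these bulk samples fewer cells of a type and less RNA per cell cannot be told apart.

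**Figure D1:**
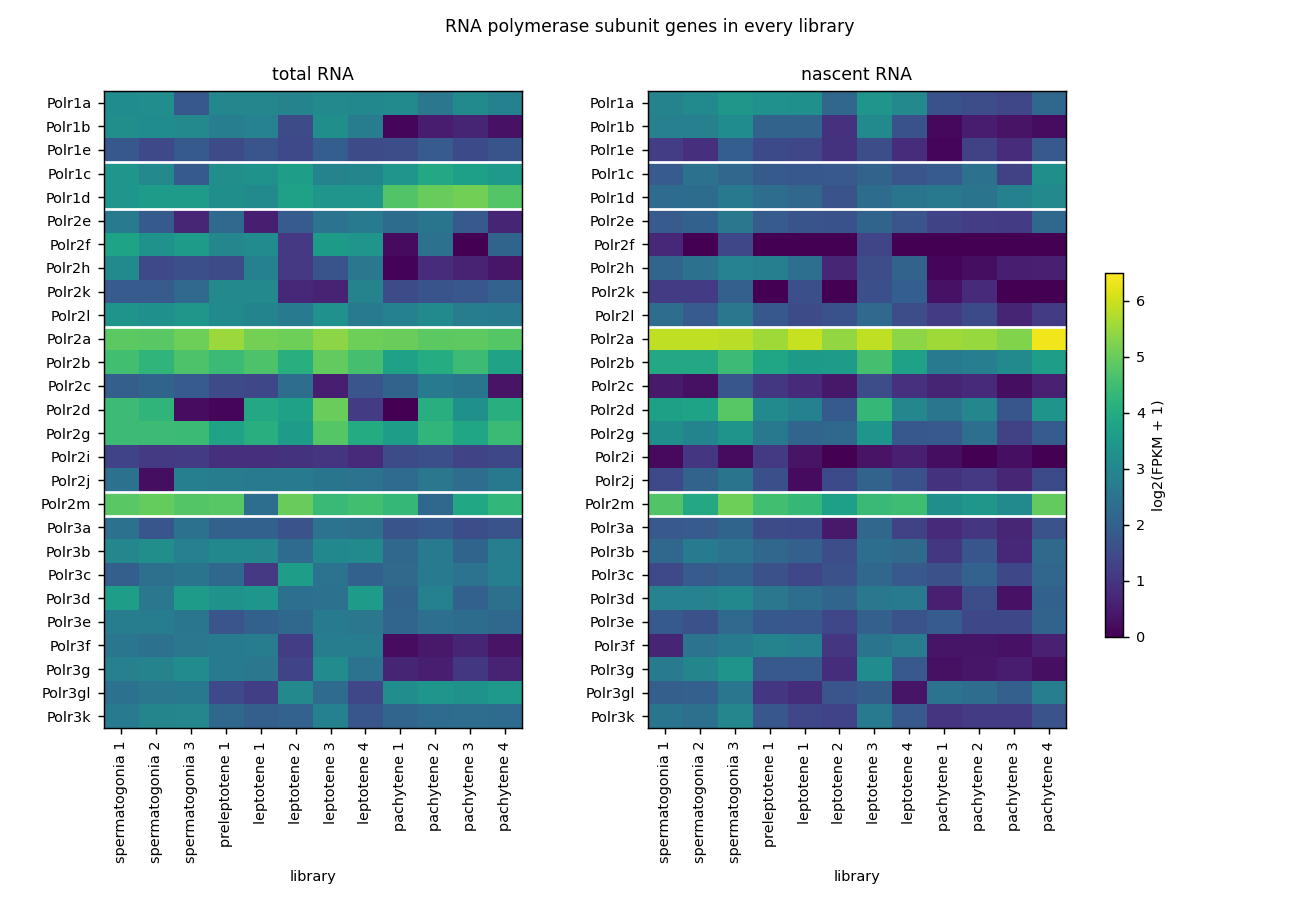
Level of 27 of the 28 subunit genes, as log2(FPKM + 1) on a colour scale, in every library of total RNA (left) and nascent RNA (right), with white lines between the subunit classes. Polr1b, Polr2h, Polr3f and Polr3g are dark in all pachytene libraries, Polr1d and Polr3gl brighten there in total RNA, and Polr2a is bright throughout.

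All 28 members passed the filter of at least 1 FPKM in at least 2 libraries in both assays. Differences were tested with limma on log2(FPKM + 1), with animals as the replicates and p adjusted over all genes tested. From leptotene to pachytene in total RNA 2 members rose and 4 fell, while 40.2% of all 19202 genes tested were called, 22.4% higher and 17.7% lower. Between spermatogonia and pachytene 1 rose and 5 fell, against 52.8% of all genes, 23.1% higher and 29.7% lower. From spermatogonia to leptotene no member was called, against 9.81% of all genes (0.286% higher, 9.52% lower), and no member had an unadjusted p under 0.05. In nascent RNA 7 members fell and none rose from leptotene to pachytene, against 31.2% of 16375 genes tested, 15.8% higher and 15.4% lower. Between spermatogonia and pachytene 9 fell, against 43.5%, 15.6% higher and 27.9% lower. From spermatogonia to leptotene no member was called, against 10.6% (0.696% higher, 9.9% lower), and 2 were lower at an unadjusted p under 0.05. Without leptotene library 1 no member was called from leptotene to pachytene in either assay, and library 2 then stood alone for its animal. In that step nascent RNA also gave 0 calls without pachytene animal IND6 and 1 without IND8, and total RNA gave 2 without pachytene animal IND2. Nascent RNA from spermatogonia to pachytene gave 2 calls without spermatogonial animal IND5. Polr1b fell from spermatogonia to pachytene under all 25 alternatives tried in total RNA and all 26 tried in nascent RNA. The members' share of calls with all libraries was below that of all genes in every one of these 6 comparisons. For the fits that left out a library or an animal the share of all genes is not given here. Their counts cannot be set against it. The median log2 difference of the members was −0.18 from leptotene to pachytene in total RNA, with −0.07 over all genes tested, and −0.51 in nascent RNA, with −0.27 over all genes. Against spermatogonia it was −0.35 in total RNA, with −0.14 over all genes, and −1.02 in nascent RNA, with −0.39.

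Among the genes of polymerase I only, Polr1b, the second largest subunit, fell in both assays while Polr1a, the largest, fell in nascent RNA alone. In total RNA Polr1b stood at 8.33, 7.92 and 7.41 FPKM in spermatogonial libraries 1 to 3, 5.90 in preleptotene, 6.41, 1.80, 8.38 and 5.71 in leptotene libraries 1 to 4, and 0.0845, 0.402, 0.591 and 0.251 in pachytene libraries 1 to 4. All pachytene libraries lay below all others, and leptotene library 2 was the lowest outside pachytene. The mean over animals was 6.07 ± 2.16 (SD, n = 3) in leptotene and 0.332 ± 0.0079 (SD, n = 2) in pachytene, a log2 difference of −2.32 (SE 0.35, adjusted p = 0.00318). Nascent Polr1b was 6.07, 6.10 and 7.96 FPKM in spermatogonia, 3.19 in preleptotene, 3.19, 0.893, 7.66 and 2.11 in leptotene, and 0.104, 0.434, 0.258 and 0.153 in pachytene. The pachytene libraries were again below all others. Nascent Polr1b fell by 1.78 on the log2 scale from leptotene (adjusted p = 0.0201) and by 2.69 from spermatogonia (adjusted p = 0.0024). The difference of total Polr1b from spermatogonia was −2.73 (adjusted p = 0.00118).

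Total Polr1a was 7.98, 8.12 and 2.49 FPKM in spermatogonia, 7.03 in preleptotene, 7.11, 6.57, 7.38 and 7.16 in leptotene, and 7.56, 5.01, 7.67 and 6.29 in pachytene. The stages overlapped, and the log2 difference from leptotene to pachytene was −0.10 (SE 0.42, adjusted p = 0.858). Nascent Polr1a was 6.51, 7.57 and 9.82 FPKM in spermatogonia, 8.85 in preleptotene, 8.66, 3.40, 9.47 and 7.37 in leptotene, and 2.13, 1.92, 1.60 and 3.61 in pachytene. Only leptotene library 2 lay within the range of the pachytene libraries. The nascent log2 difference was −1.36 from leptotene (SE 0.40, adjusted p = 0.0254) and −1.53 from spermatogonia (SE 0.44, adjusted p = 0.0155). Polr1e, a subunit that aids initiation and elongation, had means of 2.33, 2.22 and 2.11 FPKM in spermatogonia, leptotene and pachytene of total RNA and was called in no comparison. Gm19078 and Gm26628 overlap Polr1a, and Fbxo10 overlaps Polr1e, on the other strand. Whether strand was used in counting is not given in the sources used here, so reads of such partners cannot be told apart.

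Of the assembly subunits shared by polymerases I and III, Polr1d rose in total RNA. Polr1d was 9.66, 10.9 and 11.0 FPKM in spermatogonia, 8.41 in preleptotene, 7.70, 12.2, 9.44 and 9.43 in leptotene, and 25.4, 30.8, 34.0 and 26.3 in pachytene of total RNA. Every pachytene library was above every other library. The mean over animals was 9.61 ± 0.306 FPKM (SD, n = 3) in leptotene and 29.1 ± 0.834 (SD, n = 2) in pachytene. Polr1d rose by 1.51 on the log2 scale from leptotene (SE 0.29, adjusted p = 0.00524) and by 1.36 from spermatogonia (SE 0.32, adjusted p = 0.00683). In nascent RNA it was 3.83 to 5.23 FPKM in spermatogonia, 2.15 to 4.77 in leptotene and 4.65 to 7.32 in pachytene, and the difference of 0.52 from leptotene did not pass the test (SE 0.38, adjusted p = 0.316). The Polr1d locus also holds Rps10-ps4, a pseudogene, on the other strand. Polr1c, its partner, averaged 7.87 FPKM in leptotene and 11.5 in pachytene of total RNA. Its log2 difference of 0.51 did not pass the test (SE 0.44, adjusted p = 0.379).

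Of the 5 common subunits, Polr2h was the member that fell in both assays. Total Polr2h was 7.47, 1.68 and 2.01 FPKM in spermatogonia, 1.86 in preleptotene, 6.28, 1.11, 2.25 and 5.12 in leptotene, and 0.0366, 0.776, 0.556 and 0.317 in pachytene. The pachytene libraries were below all others, but spermatogonia and leptotene each spread widely. Polr2h fell by 1.61 from leptotene in total RNA (SE 0.36, adjusted p = 0.0091) and by 1.36 in nascent RNA (SE 0.38, adjusted p = 0.0207). From spermatogonia it fell by 1.44 in total RNA (adjusted p = 0.0143) and by 2.23 in nascent RNA (adjusted p = 0.00159). Polr2f was 12.5, 8.97 and 11.1 FPKM in spermatogonia, 7.79, 1.13, 10.6 and 9.43 in leptotene, and 0.144, 4.40, 0 and 3.25 in pachytene of total RNA. It fell by 2.39 from spermatogonia (SE 0.71, adjusted p = 0.0199), and its difference of −1.83 from leptotene lay just outside the threshold (SE 0.65, adjusted p = 0.0501). Polr2f was listed at 0 in 9 of the 12 nascent libraries, which can also be a failed estimate. Polr2k fell by 1.17 from leptotene and by 1.29 from spermatogonia in nascent RNA (adjusted p = 0.0475 and 0.0343), with levels of 0 to 0.712 FPKM in pachytene. These calls held in 11 and 16 of the 26 alternatives tried. Polr2l fell by 1.25 from spermatogonia in nascent RNA (adjusted p = 0.0371), from 4.21 to 1.19 FPKM in the means over animals. That call held in 16 of the 26 alternatives. Polr2e was called in no comparison with all libraries and FPKM as deposited. Clcn2 overlaps Polr2h, and 1700088E04Rik overlaps Polr2f, on the other strand.

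No gene of polymerase II only was called in any of the 6 comparisons with all libraries and FPKM as deposited. Polr2a encodes the largest subunit, whose tail carries the phosphorylation sites of the transcription cycle. Total Polr2a was 28.2, 27.6 and 32.6 FPKM in spermatogonia, 45.3 in preleptotene, 34.3, 32.7, 40.2 and 32.2 in leptotene, and 31.3, 28.0, 28.5 and 26.7 in pachytene. All pachytene libraries were below all leptotene libraries, but by a log2 difference of −0.29 that did not pass the test (SE 0.31, adjusted p = 0.478). Nascent Polr2a was 58.1, 58.0 and 56.2 FPKM in spermatogonia, 46.8 in preleptotene, 61.1, 42.2, 58.2 and 40.3 in leptotene, and 46.8, 44.0, 37.8 and 81.3 in pachytene. The stages overlapped, with a log2 difference of 0.03 from leptotene to pachytene (SE 0.42, adjusted p = 0.967). Polr2b, the second largest subunit, was 22.1, 17.97 and 24.6 FPKM in spermatogonia, 24.6, 16.3, 29.9 and 22.8 in leptotene, and 12.1, 15.2, 21.1 and 12.3 in pachytene of total RNA. Its differences of −0.66 in total and −0.92 in nascent RNA did not pass the test (SE 0.33 and 0.45, adjusted p = 0.14 for both).

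Several other genes of polymerase II had single libraries far below the rest of their stage. The stalk subunit Polr2d was 18.2 and 21.0 FPKM in 2 spermatogonial libraries of total RNA and 0.170 in the other. It was 14.2, 12.2 and 31.3 in leptotene libraries 1 to 3 and 1.19 in library 4, and 0.00900 in pachytene library 1 with 8.65 to 16.2 in the others. Single values under 0.2 of the median of the other libraries of their stage occurred 16 times among the members of total RNA. All 16 lay in genes with Polr2 names, Polr2c, Polr2d, Polr2e, Polr2f, Polr2j, Polr2k and Polr2m. There were 10 more in nascent RNA, in Polr1e, Polr2c, Polr2f, Polr2h, Polr2j, Polr2k, Polr3d, Polr3f and Polr3gl. Whether such values are failed estimates of the abundance was not tested. Polr2g, the other stalk subunit, had means of 20.8, 18.3 and 15.9 FPKM in spermatogonia, leptotene and pachytene of total RNA. Polr2i, which takes part in fidelity, was 0.756 to 0.961 FPKM in leptotene and 1.51 to 2.01 in pachytene, with no overlap, and its difference of 0.55 did not pass the test (SE 0.23, adjusted p = 0.0893). Polr2c and Polr2j, of the assembly pair, had means of 1.86 and 4.92 FPKM in leptotene and 3.40 and 4.49 in pachytene. Polr2m averaged 27.5, 19.8 and 13.7 FPKM in the same order of stages, and its difference of −1.16 from spermatogonia had an adjusted p of 0.0519 (SE 0.44). Opposite-strand partners are annotated for Polr2b, Polr2c, Polr2i and Polr2j.

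Neither catalytic gene of polymerase III was called in any of these comparisons. Polr3a, the largest subunit, was 4.35, 2.35 and 4.47 FPKM in spermatogonia, 3.06 in preleptotene, 3.03, 2.17, 4.59 and 4.28 in leptotene, and 2.22, 2.57, 1.96 and 2.17 in pachytene of total RNA. Its log2 difference from leptotene was −0.55 in total RNA (SE 0.32, adjusted p = 0.196) and −0.41 in nascent RNA (SE 0.43, adjusted p = 0.484). Polr3b, the second largest, was 7.02, 8.20 and 6.15 FPKM in spermatogonia, 7.01, 3.84, 7.12 and 7.45 in leptotene, and 3.49, 5.49, 3.26 and 5.89 in pachytene. Leptotene library 2 alone fell within the range of the pachytene libraries. The difference of −0.48 did not pass the test (SE 0.33, adjusted p = 0.274), and that of −0.68 in nascent RNA did not either (SE 0.43, adjusted p = 0.245).

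The initiation heterotrimer held the polymerase III genes that changed most. Total Polr3f was 4.83, 4.38 and 5.10 FPKM in spermatogonia, 5.41 in preleptotene, 5.67, 1.29, 5.79 and 5.81 in leptotene, and 0.172, 0.350, 0.601 and 0.265 in pachytene. All pachytene libraries were below all others, with leptotene library 2 between the groups. Polr3f fell by 2.08 from leptotene in total RNA (SE 0.34, adjusted p = 0.00336) and by 1.97 in nascent RNA (SE 0.44, adjusted p = 0.00654). Polr3c, which completes the heterotrimer, averaged 4.60 FPKM in leptotene and 4.91 in pachytene of total RNA. It was called in no comparison with all libraries and FPKM as deposited. Polr3d and Polr3e form a heterodimer that acts in termination. Polr3d fell in nascent RNA, by 1.40 from leptotene (SE 0.45, adjusted p = 0.0376) and by 1.84 from spermatogonia (SE 0.50, adjusted p = 0.0111). Polr3d was called in 13 and 20 of the 26 alternatives tried, in that order. Its nascent levels were 6.35 to 7.23 FPKM in spermatogonia, 3.38 to 5.55 in leptotene and 0.242 to 3.08 in pachytene, with no overlap between pachytene and the rest. The difference of −0.64 in total RNA did not pass the test (SE 0.41, adjusted p = 0.237). Polr3e was called in no comparison, with a mean of 3.74 FPKM in pachytene of total RNA. The small core subunit gene Polr3k fell by 1.52 from spermatogonia in nascent RNA (SE 0.50, adjusted p = 0.0294). That call held in 16 of the 26 alternatives.

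**Figure D2:**
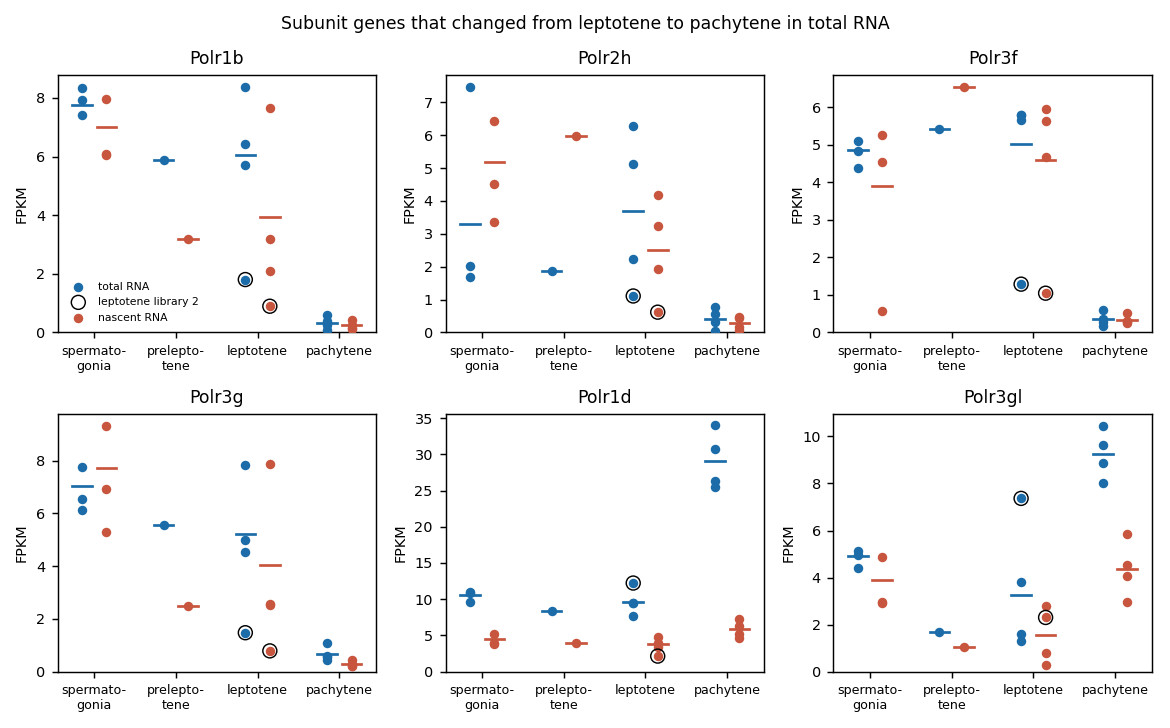
FPKM of the 6 members called from leptotene to pachytene in total RNA, with a point for each library of total RNA (blue) and nascent RNA (red), bars at the mean over animals of the stage, and rings around leptotene library 2. Pachytene points of Polr1b, Polr2h, Polr3f and Polr3g lie near 0, those of Polr1d and Polr3gl are the highest in total RNA, and the ringed points lie toward the pachytene level except for nascent Polr1d.

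Polr3g and Polr3gl exchanged places in total RNA. Polr3g was 6.12, 6.56 and 7.74 FPKM in spermatogonia, 5.55 in preleptotene, 4.99, 1.48, 7.83 and 4.54 in leptotene, and 0.601, 0.458, 1.07 and 0.570 in pachytene. Polr3gl was 4.41, 4.97 and 5.14 FPKM in spermatogonia, 1.70 in preleptotene, 1.32, 7.37, 3.80 and 1.59 in leptotene, and 8.04, 9.65, 8.87 and 10.5 in pachytene. Thus Polr3g was the higher of the pair in 7 of the 8 libraries outside pachytene and the lower in all 4 pachytene libraries, the exception being leptotene library 2. Polr3g fell by 1.79 from leptotene (SE 0.39, adjusted p = 0.00783) and by 2.27 from spermatogonia (SE 0.42, adjusted p = 0.00253). Polr3gl rose by 1.43 from leptotene (SE 0.35, adjusted p = 0.0127), and its difference of 0.79 from spermatogonia did not pass the test (SE 0.38, adjusted p = 0.112).

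The nascent libraries gave the same order. Nascent Polr3g was 5.31, 6.91 and 9.31 FPKM in spermatogonia, 2.51 in preleptotene, 2.56, 0.788, 7.88 and 2.53 in leptotene, and 0.223, 0.305, 0.430 and 0.199 in pachytene. Nascent Polr3gl was 2.92, 2.95 and 4.89 FPKM in spermatogonia, 1.05 in preleptotene, 0.815, 2.31, 2.79 and 0.285 in leptotene, and 4.54, 4.05, 2.98 and 5.87 in pachytene. Polr3g lay below the other stages in all pachytene libraries, and Polr3gl lay above leptotene but overlapped spermatogonia. Polr3g fell by 1.74 from leptotene (SE 0.52, adjusted p = 0.0262) and its difference from spermatogonia was −2.73 (SE 0.57, adjusted p = 0.00272). The difference of 1.20 in Polr3gl from leptotene did not pass the test (SE 0.48, adjusted p = 0.0776). It passed where spike-ins were left out of the sum, at 1.39 (adjusted p = 0.0365), and under upper-quartile scaling, at 1.29 (adjusted p = 0.0483). Over all 26 alternatives tried it passed in 8, with differences from 0.637 to 3.187. Gm16253 overlaps Polr3gl on the other strand.

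Levels of a pair of genes were also set against each other within each library. The log2 value of Polr3g minus that of Polr3gl in total RNA was 0.44 ± 0.10 (SD, n = 2 animals) in spermatogonia, 0.60 ± 0.69 (SD, n = 3) in leptotene and −2.62 ± 0.35 (SD, n = 2) in pachytene. In nascent RNA it was 0.83 ± 0.03, 0.91 ± 0.76 and −2.03 ± 0.29 in the same order. The balance was 9.29-fold lower in pachytene than in leptotene in total RNA and 7.68-fold lower in nascent RNA, on the scale with 1 FPKM added. With 0.1 FPKM added the log2 differences were larger, −4.41 and −4.94 in place of −3.22 and −2.94. The values of pachytene animals did not overlap those of leptotene or spermatogonial animals in either assay. In each assay 1 animal gave both leptotene and pachytene libraries, and the test that follows treats its values as independent. The exact permutation test over animals, two-sided, gave p = 0.2 against leptotene and p = 0.333 against spermatogonia. These are the smallest values that these numbers of animals allow, and after adjustment over 18 such tests they were 0.6. Without leptotene libraries 2 and 3 the difference from leptotene was −3.86 on the log2 scale in total RNA and −3.25 in nascent RNA.

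**Figure D3:**
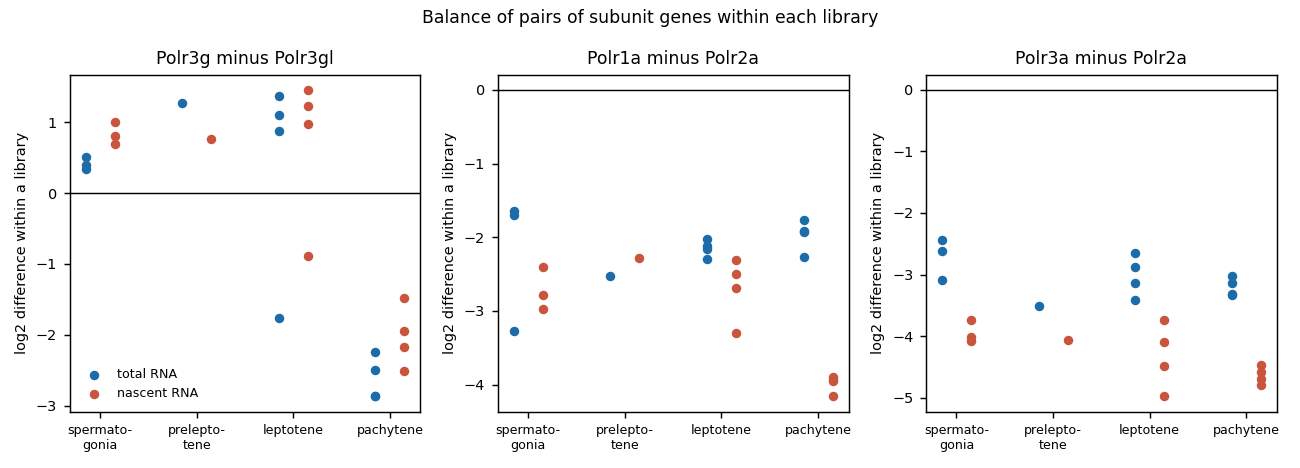
Log2(FPKM + 1) of the first gene minus that of the second gene within each library, by stage, for Polr3g and Polr3gl (left), Polr1a and Polr2a (middle) and Polr3a and Polr2a (right), in total RNA (blue) and nascent RNA (red). Polr3g minus Polr3gl is below 0 in all pachytene libraries and in leptotene library 2 only outside pachytene, and Polr1a minus Polr2a is lowest in the pachytene libraries of nascent RNA.

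The largest subunits of the enzymes were set against each other in the same way. Polr1a minus Polr2a in nascent RNA was −2.64 ± 0.34 (SD, n = 2 animals) in spermatogonia, −2.60 ± 0.35 (SD, n = 3) in leptotene and −3.99 ± 0.10 (SD, n = 2) in pachytene. Nascent Polr1a was thus 2.62-fold lower relative to Polr2a in pachytene than in leptotene on the scale with 1 FPKM added, with no overlap of the animals' values. The exact permutation test gave its smallest possible p of 0.2. In total RNA the same balance was −2.47 ± 1.13, −2.15 ± 0.14 and −1.97 ± 0.18, and the animals' values overlapped. Polr3a minus Polr2a was −2.69 ± 0.11, −2.94 ± 0.31 and −3.20 ± 0.17 in total RNA, and −3.89 ± 0.22, −4.19 ± 0.50 and −4.63 ± 0.08 in nascent RNA. The values of pachytene and leptotene animals overlapped for this pair in both assays, with differences of −0.26 and −0.44. Those of pachytene and spermatogonial animals did not overlap in either assay, with differences of −0.504 in total and −0.745 in nascent RNA. For both, the exact permutation test gave its smallest possible p of 0.333.

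Between the polymerases, the counts of changed genes from leptotene to pachytene are given beside the 40.2% of all genes called in total RNA and 31.2% in nascent RNA. Of the genes of polymerase I only, 1 of 3 fell in total RNA and 2 of 3 in nascent RNA, with medians of −0.11 and −1.36. Of those of polymerase II only, 0 of 7 were called in either assay, with medians of −0.17 and −0.46. Of those of polymerase III only, 2 of 10 fell and 1 rose in total RNA and 3 fell in nascent RNA, with medians of −0.34 and −0.55. For the 2 genes of polymerases I and III the medians were 1.01 and 0.43, with 1 rise, in total RNA. For the 5 common genes they were −0.30 and −0.68, with 1 fall in total RNA and 2 in nascent RNA. Without leptotene libraries 2 and 3, where 57.3% of all genes were called in total RNA, 1 of 7 genes of polymerase II only rose and 1 fell, with a median of −0.01. Of the 5 common genes 3 then fell, with a median of −1.23, and of the 10 genes of polymerase III only 1 rose and 3 fell, with a median of −0.29. Rescaled to the same sum without spike-ins, 5S copies and Rn45s, 1 of 7 genes of polymerase II only rose in total RNA, with a median of 0.21 beside 0.19 over all genes tested, of which 42.5% were called. From spermatogonia to pachytene in nascent RNA as deposited, the median was −1.08 for polymerase II only, with 0 of 7 called. It was −1.53 for polymerase I only, with 2 of 3 lower, and −0.97 for polymerase III only, with 4 of 10 lower. Over all genes tested it was −0.39, and 43.5% were called. In total RNA the medians were −0.07, −0.10 and −0.56 in the same order, beside −0.14 over all genes. No test of a difference between the classes was made, and the shared subunits belong to more than 1 enzyme.

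**Figure D4:**
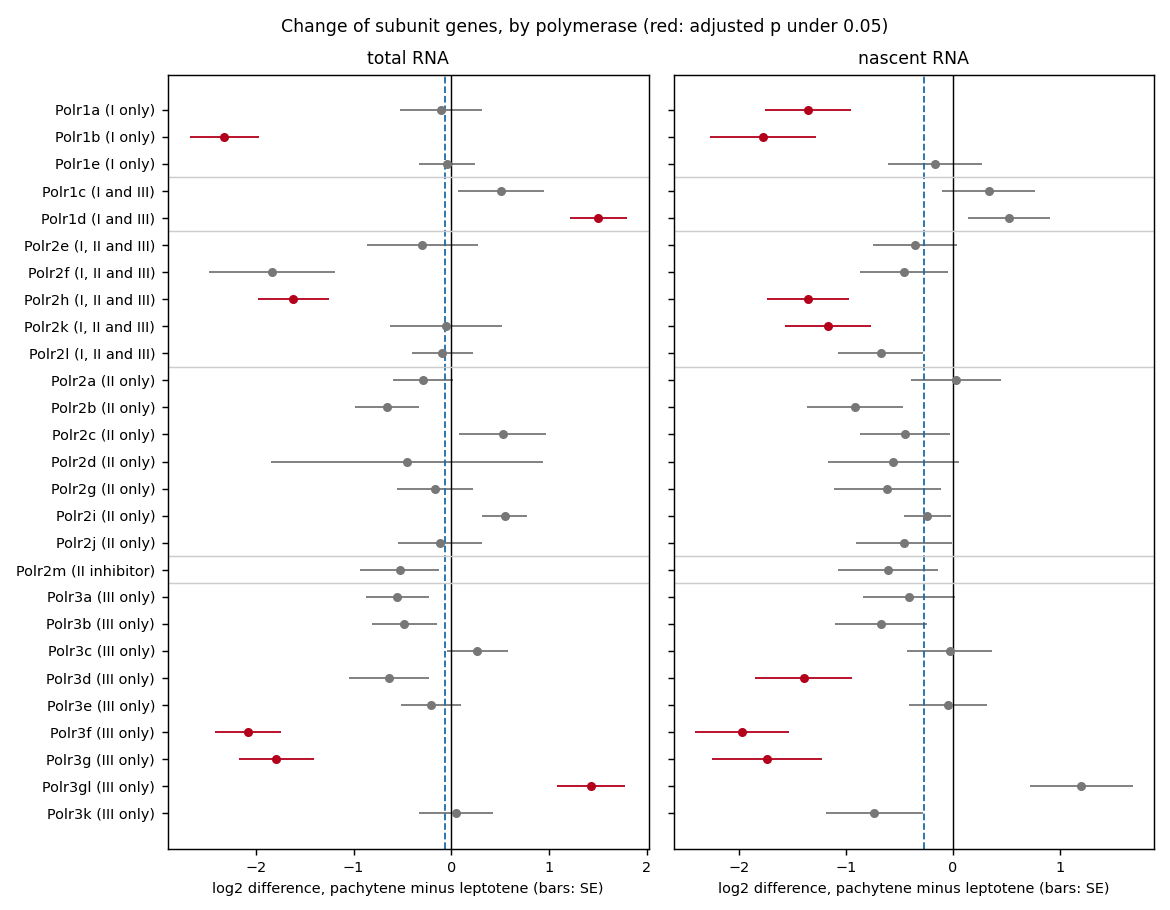
Log2 difference of 27 of the 28 members from leptotene to pachytene on the log2(FPKM + 1) scale, with bars of 1 SE, in total RNA (left) and nascent RNA (right), in order of subunit class. Red marks an adjusted p under 0.05 and the dashed line is the median of all genes tested, −0.07 in total and −0.27 in nascent RNA. No gene of the class II only is red in either assay.

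The median of all genes moved with the scaling, while the members called changed by 1 in each assay. With spike-ins, 5S copies and Rn45s left out of the sum of each library, the median of all genes from leptotene to pachytene was 0.19 in total RNA and −0.13 in nascent RNA. All genes then gave 5595 rises and 2629 falls in total RNA, against 4303 and 3407 with FPKM as deposited. The members gave 3 rises and 4 falls in total RNA, the added gene being Polr2i at 0.76 (adjusted p = 0.027), against 42.5% of all genes, and 1 rise and 7 falls in nascent RNA, against 35.1%. Spike-ins made up 2.49% to 8.19% of the summed FPKM of total RNA and 5.01% to 76.5% of that of nascent RNA.

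The animals sampled for several stages allow a fit with the animal as a replicate block, which leaves fewer degrees of freedom. In each assay only 1 animal gave both leptotene and pachytene, so the blocked difference between these stages rests on leptotene library 3, which was close to spermatogonial library 3, and pachytene libraries 2 and 4. No animal gave both spermatogonia and pachytene, and these are linked only through leptotene. The blocked fit called 3 members from leptotene to pachytene in total RNA, all falls, Polr1b at −2.83, Polr3g at −2.55 and Polr3f at −2.38 (adjusted p = 0.00572, 0.0106 and 0.0144), against 22.9% of all genes. Against spermatogonia it called the same 3 genes, at −3.49, −3.34 and −2.56, against 31.7%. In nascent RNA the blocked fit called 3 members from leptotene to pachytene, among them Polr1b at −2.75 and Polr3g at −2.83, against 19.7% of all genes. Against spermatogonia it called the same genes, with Polr1b at −4.18 and Polr3g at −4.34, against 31.7%. The other gene was Polr2f, also the only member called from spermatogonia to leptotene, against 20% of all genes. Polr2f was listed at 0 in all pachytene libraries and in all leptotene libraries but library 3 of nascent RNA, and its calls are not read as differences.

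Without leptotene libraries 2 and 3, which left 2 leptotene animals, more of all genes and more members were called. From leptotene to pachytene in total RNA 3 members rose, Polr1d at 1.65, Polr3gl at 2.06 and Polr2i at 0.59. The 8 that fell were Polr1b at −2.42, Polr3f at −2.33, Polr2h at −2.26, Polr2f at −2.08, Polr3g at −1.79, Polr2k at −1.23, Polr3d at −1.15 and Polr2b at −0.64. The share of all genes called was then 57.3%. In nascent RNA 7 fell and Polr3gl rose by 1.78 (adjusted p = 0.0037), against 48.6% of all genes.

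The step from spermatogonia to leptotene, where no member was called with all libraries, also changed. Without those 2 libraries Polr3gl fell by 1.27 in total RNA (adjusted p = 0.00976) and by 1.66 in nascent RNA (adjusted p = 0.00812). Polr3k fell by 1.06 in total RNA (adjusted p = 0.0145) and by 1.15 in nascent RNA (adjusted p = 0.0317). Polr2k rose by 0.93 in total RNA (adjusted p = 0.0303), where its difference with all libraries was −0.25. Polr1b, Polr2g and Polr3g fell in nascent RNA by 1.14, 1.27 and 1.27. In this setting 27% of all genes were called in total RNA and 33.8% in nascent RNA. The paralog Polr3gl thus had its lowest values in preleptotene and in leptotene libraries 1 and 4 in both assays, between higher levels in spermatogonia and pachytene.

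The single preleptotene library of each assay allows no test. Its Spearman correlation with leptotene libraries 1 and 4 was 0.900 and 0.914 in total RNA and 0.913 and 0.910 in nascent RNA. With the spermatogonial libraries it was 0.701 to 0.802 in total RNA and 0.598 to 0.696 in nascent RNA. In total RNA the preleptotene library held the highest Polr2a of all 12 libraries, 45.3 FPKM. It also held the highest Polr2k, 7.31 FPKM, with leptotene libraries 1 and 4 at 7.29 and 6.49. Its Polr2d was 0.0632 FPKM in total RNA and 7.41 in nascent RNA. Polr3g and Polr3gl stood at 5.55 and 1.70 FPKM in total RNA and at 2.51 and 1.05 in nascent RNA. Polr3f, at 6.56 FPKM, was the highest of the nascent libraries.

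No member departed between the assays by the test of total over nascent RNA. From leptotene to pachytene 0 of 28 members were called, against 0.0251% of 15914 genes. At an unadjusted p under 0.05 there were 3 members, against 6.75% of all genes. They were Polr1a, at 1.25 (SE 0.57), Polr1d, at 0.98 (SE 0.44), and Polr2i, at 0.78 (SE 0.31). For each, the stage difference was more positive in total than in nascent RNA. Between spermatogonia and pachytene 0 members were called, against 0.0126%, and 2 had an unadjusted p under 0.05, against 9.43%. They were Polr1a at 1.95 (SE 0.62, adjusted p = 0.361) and Polr1d at 1.06 (SE 0.48, adjusted p = 0.506). From spermatogonia to leptotene 0 members were called with 0% of all genes, and 0 had an unadjusted p under 0.05, against 2.79%.

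In the authors' 5S-corrected nascent table, which holds 9 libraries, the direction of all genes was different. The deposited signal of Polr2a was 227, 158 and 52.9 in spermatogonia, 21.9 in preleptotene, 35.9 and 17.7 in leptotene, and 82.4, 224 and 185 in pachytene. Leptotene and preleptotene were the lowest, and spermatogonia and pachytene overlapped. From spermatogonia to leptotene 9 of the 27 members tested fell, against 27.7% of all genes (0.461% higher, 27.2% lower), whose median was −1.08. They were Polr1b, Polr2d, Polr2f, Polr2g, Polr2j, Polr2l, Polr3g, Polr3gl and Polr3k, at −2.88 in Polr2d to −1.06 in Polr2f. From leptotene to pachytene 4 rose and none fell, against 32.8% of all genes (31.1% higher, 1.72% lower), with a median of 0.87. The 4 were Polr3gl at 3.19, Polr1c at 2.27, Polr1d at 2.22 and Polr3c at 1.84 (adjusted p = 0.000655, 0.0225, 0.0287 and 0.0435). In that step Polr1b, Polr2h, Polr3f and Polr3g had log2 differences of −0.55, −0.90, −1.04 and −0.46, all below the median of 0.87. None of these passed the test of a difference from 0. Between spermatogonia and pachytene 5 fell, against 40.9% of all genes (18.3% higher, 22.6% lower), with a median of −0.14. They were Polr3g at −3.04, Polr1b at −3.00, Polr2h at −2.63, Polr3f at −1.69 and Polr2f at −1.06. Polr2f was listed at 0 in all leptotene and pachytene libraries of this signal and passed the filter through spermatogonia alone. Its calls against either stage are counted here but not read as differences.

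Genes that act with the polymerases were taken from lists. Of 3 polymerase I subunits with other symbols, Cd3eap, Twistnb and Znrd1, none was called in any comparison with all libraries and FPKM as deposited. Neither was Crcp, a polymerase III subunit. Crcp varied from 0.402 to 45.2 FPKM between pachytene libraries of total RNA. Among 7 polymerase I factors, 2 fell from leptotene to pachytene in both assays, against 40.2% of all genes called in total RNA and 31.2% in nascent RNA. Taf1d, of the promoter factor SL1, fell by 2.27 in total and by 1.77 in nascent RNA (adjusted p = 0.00693 and 0.026). Ubtf, which binds ribosomal DNA, fell by 1.21 and by 1.31 (adjusted p = 0.0097 and 0.021), from 1.99 to 0.295 FPKM in total RNA. From spermatogonia to pachytene in total RNA 2 fell, Ubtf at −2.12 and Taf1d at −1.62, and 2 rose, Taf1b by 1.60 and Ttf1 by 0.98. In that comparison 52.8% of all genes were called, 23.1% higher and 29.7% lower.

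Of 16 polymerase III factors tested in total RNA, 3 rose and 2 fell from leptotene to pachytene, where 22.4% of all genes rose and 17.7% fell. Snapc5, of the complex that serves small nuclear RNA promoters, rose by 1.19 (adjusted p = 0.0115). Brf2, an initiation factor for such genes, rose by 1.08 (adjusted p = 0.0393), and Brf1, an initiation factor of transfer RNA genes, rose by 0.90 (adjusted p = 0.0402). In nascent RNA Bdp1, their shared partner, was the 1 called of 15 tested, at −1.41 (adjusted p = 0.0366). Of 17 assembly and import genes tested in total RNA, 6 rose and 2 fell, against the same shares of all genes. Uri1, a cochaperone subunit, fell by 2.55 (adjusted p = 0.00315), Pih1d1, of the R2TP cochaperone, rose by 1.79 (adjusted p = 0.00342), and Telo2, of the same chaperone system, fell by 1.72 (adjusted p = 0.00435). Among 4 genes of mitochondrial transcription Tfam fell by 1.30 in total and by 1.63 in nascent RNA (adjusted p = 0.0104 and 0.0144), and Polrmt was not called.

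Of 7 listed transcripts of polymerases I and III, 5 could be tested, and 3 fell from leptotene to pachytene in total RNA, where 17.7% of all genes fell. Rmrp, the RNA of RNase MRP, fell by 2.92 (adjusted p = 0.00312), Rpph1, the RNA of RNase P, by 2.21 (adjusted p = 0.00502) and Rn7sk, which holds back elongation by polymerase II, by 0.78 (adjusted p = 0.0416). In nascent RNA Rmrp fell by 2.47 (adjusted p = 0.0184), and no other transcript of the list was called. No gene of these lists was called from spermatogonia to leptotene with all libraries in either assay, where 9.81% of all genes were called in total and 10.6% in nascent RNA. Without leptotene libraries 2 and 3 that step had rises of Rmrp, Tti1 and Gtf3c3 and falls of Cd3eap, Snapc4 and Gpn2 in total RNA. In nascent RNA Gtf3c4 rose, and Ubtf, Snapc4, Znrd1, Rpap1, Cd3eap and Tti1 fell. In this setting 27% of all genes were called in total RNA and 33.8% in nascent RNA.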

How the data were processed

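The data are 24 libraries of sorted testis cells, of total RNA or of EU-captured nascent RNA. The submitters' processing notes name STAR 2.5.2a, StringTie and mm10. Which annotation was used, whether strand was, and the version of StringTie are not given in the sources used here. The deposited values are FPKM per gene, made by the authors for 12 libraries of each assay, and a deposited signal of nascent FPKM corrected by the authors with 5S RNA for 9 libraries, without leptotene libraries 2 and 3 and pachytene library 3. That signal was rescaled by 1 constant before 1 was added. Depth is approximate, because 34.5% to 44.4% of low values were whole multiples of the step within 0.05.

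Genes reaching 1 FPKM in 2 or more libraries were tested on log2(FPKM + 1) with limma 3.58.1 (R 4.3.3) after averaging the libraries of an animal in a stage. This scale understates changes of low genes. Benjamini-Hochberg adjustment ran over all genes tested, with a threshold of 0.05, and "called" means an adjusted p under it. P-values measure the spread between animals. The stages share a fit for each assay, so comparisons share samples. Same-animal pairs come from the labels' individual numbers. Their deviations from the stage means correlated at 0.08, 0.015 and 0.084 in total RNA and −0.16, −0.119 and 0.054 in nascent RNA. Gene pairs were tested by exact permutation over animals. The alternatives were a pseudocount of 0.1, no filter, the animal as a block, upper-quartile scaling, rescaling without spike-ins, the 5S-corrected table, the libraries with a counterpart in it, and leaving out each library or animal.

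Counts cover all 28 members, of which 1 is not reported here on its own. The others are named, with full statistics for Polr1a, Polr1b, Polr2a, Polr2b, Polr3a, Polr3b, Polr3g, Polr3gl and up to 4 called members of each comparison with the largest change. From each list up to 3 called genes with the largest change were named, or the 2 with the highest mean where none was called, with some others added after their values were seen. The members and lists were chosen with earlier results of these data known. Promoters are from RefSeq GRCm38.p6 and gene positions from GENCODE M21. Scripts were tested on simulated data. They ran under scipy 1.17.1, pandas 2.3.3 and numpy 2.4.6 with Python 3.11.15, and figures used matplotlib 3.10.9.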

Additional observations from a re-analysis of the deposited data

Results flagged for a closer look

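Of 112 groups of 4 libraries, 9 (8.04%) held a library far from the others, and chance alone gives about 1 in 20 groups. In total RNA leptotene library 2 was low for Polr3b, at 3.842 FPKM with the others at 7.01 to 7.45, and for Polr3f, at 1.2859 FPKM with the others at 5.67 to 5.81. In nascent RNA leptotene library 3 was high for Polr2b at 22.9756 FPKM, with the others at 10.6 to 12.2, and for Polr2e at 3.2707, with the others at 2.10 to 2.26. The same library was high for Polr2f at 1.5839 FPKM, with the others listed at 0, for Polr2g at 9.6513, with the others at 2.48 to 3.57, and for Polr2l at 3.6801, with the others at 1.86 to 2.09. Nascent pachytene library 4 was high for Polr2e at 3.6109 FPKM, with the others at 1.22 to 1.53, and for Polr2m at 29.8959, with the others at 7.66 to 9.77. Spike-ins made up 13.1% of the summed FPKM of that library and 64.9% to 76.5% in the other nascent pachytene libraries. The part of this in its high values was not tested.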

How the results depend on the processing

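With the animal as a replicate block, members called were 3 in each comparison of pachytene with an earlier stage and, from spermatogonia to leptotene, 1 in nascent RNA. With the libraries that have a counterpart in the 5S-corrected table, total RNA called 3, 11 and 10 members from spermatogonia to leptotene, leptotene to pachytene and spermatogonia to pachytene, and nascent RNA 6 from spermatogonia to leptotene. Without leptotene libraries 2 and 3 total RNA called 3 and 11 in the first 2 of these steps (27% and 57.3% of all genes). Nascent RNA called 5 in the first (33.8% of all genes). The 5S-corrected table called 9, 4 and 5 members in the order of these steps (27.7%, 32.8% and 40.9% of all genes). Without a filter nascent RNA called 3 from leptotene to pachytene. Leaving out 1 library or animal gave 0 to 0, 0 to 9 and 4 to 7 calls in total RNA and 0 to 5, 0 to 7 and 2 to 12 in nascent RNA. For the counterpart libraries, the fit without a filter and the leave-outs, the share of all genes called is not given here. Those counts are not read as results about the members. Polr2k in total RNA from spermatogonia to leptotene turned to 0.927 both with the counterpart libraries and without leptotene libraries 2 and 3. In the 5S-corrected table the step from leptotene to pachytene turned to 0.428 for Polr1a, 0.291 for Polr3d and 1.839 for Polr3c. Within animals, as a block, Polr3g minus Polr3gl in nascent RNA from spermatogonia to leptotene turned to −0.077 and Polr1a minus Polr2a to −0.004. Leaving out 1 library, Polr3g minus Polr3gl ran from −0.365 to 0.676 in total and −0.226 to 0.393 in nascent RNA for that step, and Polr1a minus Polr2a from −0.48 to 0.389 and −0.103 to 0.284. From spermatogonia to pachytene Polr1a minus Polr2a in total RNA ran from −0.296 to 0.586. The cause of these changes was not tested. Of the single-member alternatives 7010 kept direction and side of the threshold, 512 lost their direction with neither value past it, 98 passed it newly and 145 no longer passed it.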
